A study of Ambystoma mexicanum with 5 samples.

Results

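*Hoxc10* (HOXC10, AMEX60DD029496) and *Hoxc6* (HOXC6, AMEX60DD029497) are 2 of the 99088 genes in the deposited count table. They are the only HoxC genes with a symbol in the study's lists of genes called between anterior and posterior dermal cells. Symbols were read from those lists only, so that an identifier named elsewhere in the study is not covered. *Hoxc10* and *Hoxc6* were chosen by their counts, which were higher in anterior than in posterior dermal cells. Their difference between positions is therefore given as a description, without a test. The 24 rows with the nearest identifiers, 11 before *Hoxc10* and 13 after *Hoxc6*, were taken with them whatever their values, to ask whether neighbouring genes shared the anterior bias.

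Hox genes encode transcription factors with a DNA-binding homeodomain and lie in clusters, in which the order of the genes follows the order of their expression along the body axis. In the limb bud of the mouse, HoxA and HoxD genes pattern the axes of the limb, and group 13 members act in the hand plate. HoxC genes are best known in the mouse for the trunk and for differences between limbs: *Hoxc6* marks the thoracic level and the forelimb bud, and *Hoxc10* the lumbar level and the hindlimb bud. Hox transcripts persist in adult skin fibroblasts of mammals in patterns that depend on body site.

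The libraries came from uninjured axolotls (*Ambystoma mexicanum*) of 12 cm, and each replicate pooled the skin of 16 lower arms from 8 animals. All animals carried a Cre recombinase switched on by 4-hydroxytamoxifen and driven by a mouse *Prrx1* enhancer (Mmu.Prrx1:TFPnls-T2A-ERT2-Cre-ERT2), together with the reporter Caggs:loxP-GFP-loxP-mCherry. Treatment at the embryonic stage left connective tissue cells of the limb, as far as the enhancer reaches them, red. Anterior (n = 2) and posterior (n = 3) skin pieces were digested separately and mCherry-positive dermal cells were sorted. QuantSeq reads the 3′ end of each polyadenylated transcript, so that a count does not scale with transcript length. Library totals ran from 44317956 to 51408176 counts in anterior and from 53927341 to 59062548 counts in posterior cells, so that 3 counts correspond to 0.0512 to 0.067 CPM (counts scaled to library size). Markers of connective tissue, such as *Postn* and *Fn1*, were detected in all libraries (11 of 11 genes listed, with a summed level of 9457 to 10416 CPM in posterior and 13143 to 14683 CPM in anterior cells). Epidermal markers (6 genes in 7 rows) summed to 298 to 318 CPM in anterior and 634 to 878 CPM in posterior cells, with *Krt17* at 0 in anterior and *Krt18* at 0 in posterior cells. The 4 immune genes summed to 117 to 148 CPM and 234 to 253 CPM, and the 2 vascular genes to 46.5 to 53.7 CPM and 43.4 to 53.2 CPM. The 2 Schwann cell and nerve genes, *Ngfr* and *Ednrb*, summed to 54.9 to 58.6 CPM in anterior and 17.5 to 24.4 CPM in posterior cells. All these markers are the study's own calls between positions, and their part in the HoxC values was not tested.

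*Hoxc10* was counted 400 and 494 times in the anterior libraries. In posterior replicates 1, 2 and 3 it was counted 0, 1 and 0 times. The groups were thus far apart, and the single posterior read lay below the 3 counts that a library with a count of 0 still allows. The anterior level was 9.30 ± 0.532 CPM (SD, n = 2). For all 5 libraries together, the anterior over posterior ratio was 1594, with an exact 95% interval of 285 to 63040 that covers counting error only. The wide interval rests on the 1 posterior read. Without posterior replicate 2, which holds it, *Hoxc10* was at least 349-fold higher in anterior cells against a floor of 3 counts over the remaining posterior libraries, and without posterior replicate 1 or 3 the ratio was 1047 or 1093. In bulk cells, a smaller number of expressing cells and less RNA per cell cannot be told apart.

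*Hoxc6* was counted 554 and 646 times in the anterior libraries and 61, 50 and 126 times in posterior replicates 1, 2 and 3. Both anterior libraries lay above all posterior ones, but in contrast to *Hoxc10* the gene was detected in every posterior library. The levels were 12.5 ± 0.207 CPM (SD, n = 2) and 1.41 ± 0.812 CPM (SD, n = 3), so that the posterior level was 11.3% of the anterior one. The fitted log2 fold change of posterior over anterior was -3.15.

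**Figure D1:**
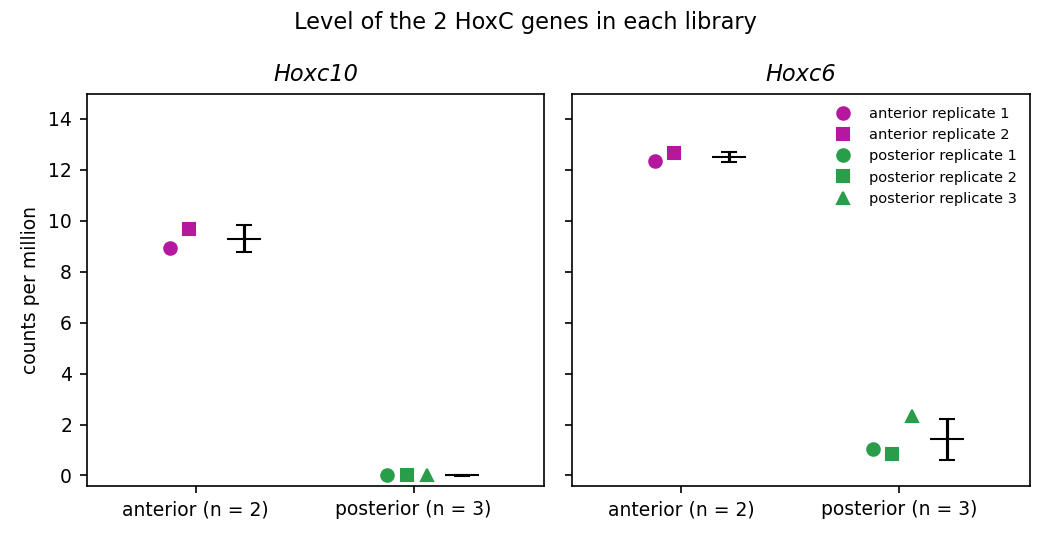
Level of *Hoxc10* and *Hoxc6* in CPM (vertical axis) in each anterior (magenta) and posterior (green) library, with the mean and SD of each position in black. *Hoxc10* is at 8.93 and 9.68 CPM in anterior libraries and at or near 0 in posterior ones, whereas *Hoxc6* keeps 0.854 to 2.34 CPM in posterior libraries.

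In anterior cells these were transcripts of middling abundance. Both passed the filter on low counts, *Hoxc10* through the anterior libraries alone. The mean anterior level of *Hoxc10* was above that of 63.5% of the 20875 genes that passed, and the level of *Hoxc6* above that of 69.3%. In posterior cells the corresponding shares were 1.05% and 31.0%. The anterior replicates were close to each other for both genes. Their log2 CPM differed by 0.12 for *Hoxc10* and by 0.03 for *Hoxc6*, against a median difference of 0.35 over the 5390 tested genes with an anterior mean of 5 to 20 CPM. Of those genes, 81.6% and 94.7% differed more between the anterior libraries than *Hoxc10* and *Hoxc6* did. This closeness is not independent of the choice of the genes, since a test between positions weighs the spread within each position.

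The balance between the members was compared between the anterior libraries. In anterior replicate 1 there were 1.39 *Hoxc6* counts for each *Hoxc10* count, with an exact 95% interval of 1.22 to 1.58. In anterior replicate 2 the ratio was 1.31, with an interval of 1.16 to 1.47. The intervals overlap but cover counting error only, and no test of a difference between the anterior libraries was made. In the posterior libraries together, 237 counts of *Hoxc6* stood beside 1 count of *Hoxc10*. These are the counts by which the genes were chosen, so that the balance at the posterior position is a description only.

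Among posterior libraries, *Hoxc6* was highest in replicate 3, at 2.34 CPM with a 95% Poisson interval of 1.95 to 2.79 CPM. Replicates 1 and 2 were at 1.04 CPM (0.796 to 1.34 CPM) and 0.854 CPM (0.634 to 1.13 CPM). The intervals cover counting error only and not the spread between pools of animals, so that they do not set replicate 3 apart from the others. Relative to the anterior mean, the values were 18.7%, 8.31% and 6.83% in replicates 3, 1 and 2. The order of the posterior libraries differed among anterior transcription factors, which was not tested. The study lists 25 spatial transcription factors. In the lists used for symbols 24 have an identifier, and 15 of these had a higher mean in anterior cells. Of the 13 besides the HoxC genes, 11 were detected in posterior cells, 0 of them were highest in posterior replicate 3, and 7 were lowest there. *Barx1*, *Egr4*, *Tcf4* and *Zfhx4* were lowest in posterior replicate 1. Of the 9 factors with a higher mean in posterior cells, *Msx2*, *Hoxa13*, *Ebf2* and *Hoxd13* were highest in posterior replicate 3, as *Hoxc6* was. *Hic1*, *Klf8*, *Tbx2*, *Hand2* and *Znf10* were not. The share of all genes tested with such an order was not taken, so that these counts are a description only. *Alx1*, a paired-type homeobox gene of anterior limb mesenchyme, was at 7.45, 7.26 and 2.46 CPM in posterior replicates 1, 2 and 3, and *Dmrt2*, a doublesex-related factor, was at 17.3, 11.9 and 6.23 CPM.

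The posterior level as a share of the anterior one placed both HoxC genes near the strict end of this list. *Lhx9*, a LIM homeobox gene of early limb outgrowth in the mouse, and *Foxd1*, a forkhead gene, had 0 posterior counts. Against a floor of 3 counts over the posterior libraries, *Lhx9* was at least 861-fold and *Foxd1* at least 173-fold higher in anterior cells. *Hoxc10* came next with 1 posterior count, and *Hoxc6*, at 11.3%, lay between *Alx1* at 6.72% and *Lhx2* at 22.1%. The remaining factors ranged from 25.8% for *Tbx22* to 65.7% for *Zfhx4*. *Pbx3* encodes a TALE homeodomain protein of the kind that binds DNA together with Hox proteins. It was the only gene of that class in the lists used for symbols. Its levels were 14.6 and 11.8 CPM in anterior and 5.82, 4.89 and 4.26 CPM in posterior libraries, a posterior share of 37.8%, so that this cofactor gene was present at both positions. The list holds calls that the study made on these samples, and the order among its members was not tested.

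**Figure D2:**
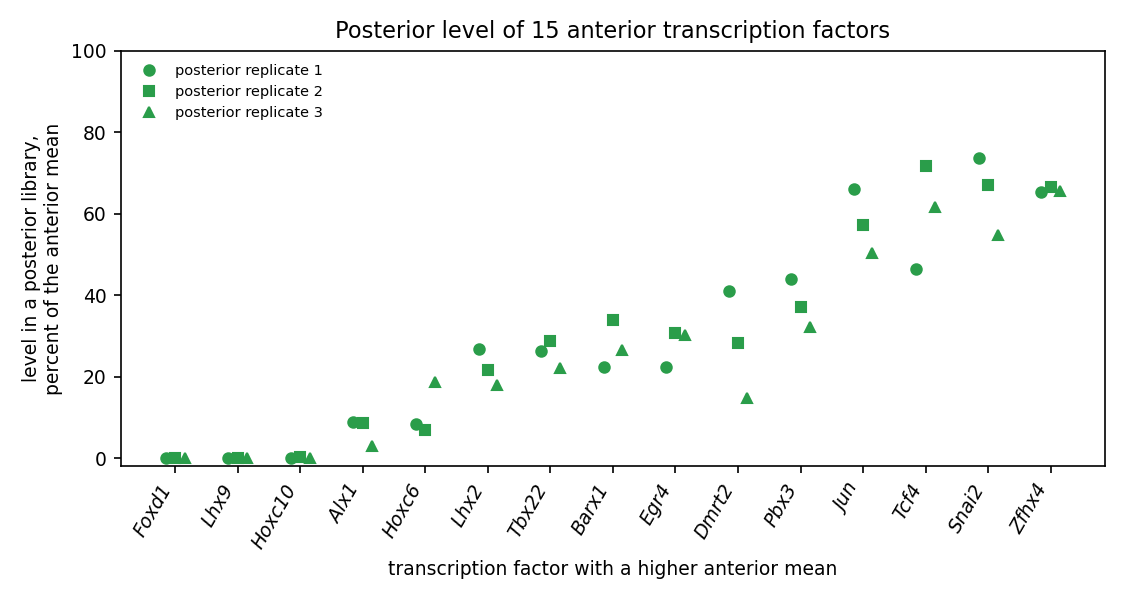
Level of the 15 anterior spatial transcription factors in each posterior library, as a percent of the anterior mean (vertical axis), ordered by their posterior share; the 3 symbols are the posterior replicates. *Hoxc10* lies at the bottom with *Foxd1* and *Lhx9*. *Hoxc6* is at 18.7% in posterior replicate 3 and at 8.31% and 6.83% in the other replicates. It is the only one of these 15 anterior factors that is highest in replicate 3, but some factors higher in posterior cells, not shown, were also highest there.

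The rows around the HoxC genes carry no symbol in the lists used for symbols and are described by their place only. Of these 24 rows, 10 had no count in any library and 14 had at least 1. The anterior mean was higher in 11 of the 14 and the posterior mean in 3. At the level of all 27710 rows with a count, the anterior mean was higher in 14253. The filter on low counts left 7 of the 24 rows, of which 6 had a negative and 1 a positive log2 fold change of posterior over anterior. The median log2 fold change of the 7 was -1.39, against -0.02 over all genes tested, and it is the value of the first row after *Hoxc6*. A row could pass the filter through the anterior libraries alone, as did the second and the third row after *Hoxc6*. The count among rows that passed and their median therefore lean towards a difference.

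In the quasi-likelihood test of edgeR, 0 of the 7 rows passed a Benjamini-Hochberg false-discovery rate of 0.01, against 0.254% of all genes tested in either direction and 0.134% higher in anterior cells. DESeq2 and limma-voom also called 0, whereas 1 row, the fourth after *Hoxc6*, passed in edgeR without the filter on low counts. The adjusted p-values in edgeR ran from 0.198 to 1.00. At an unadjusted p under 0.05, 3 of the 7 passed, all higher in anterior cells, against 7.55% of all genes in either direction and 4.11% in that direction. In 5 of the 7 rows every anterior library was above every posterior library, which held for 13.6% of all genes tested, and in 1 row the order was the opposite, which held for 10.5%. Among both the 3 and the 5 are the second and the third row after *Hoxc6*, which passed the filter through the anterior libraries alone. Both counts therefore lean towards a difference and are a description only.

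The anterior counts were not spread evenly along the rows. The first 5 rows after *Hoxc6* each had a higher mean in anterior cells, a stretch that was delimited after the values were seen. Their summed counts were 664 and 788 in anterior libraries and 50, 102 and 129 in posterior replicates 1, 2 and 3. In CPM, the anterior sums of 14.8 and 15.4 lay far above the posterior sums of 0.853, 1.74 and 2.40. The fourth of these rows (AMEX60DD029501) had the most counts, 249 and 568 in anterior libraries and 0, 19 and 46 in posterior replicates 1, 2 and 3. Its anterior level of 8.34 ± 3.94 CPM (SD, n = 2) was close to that of *Hoxc10*, and its posterior level was 0.394 ± 0.432 CPM (SD, n = 3). With a standard error of 1.13, its log2 fold change of -4.41 missed the threshold (adjusted p = 0.198, edgeR's quasi-likelihood test). Over the alternative settings its adjusted p ranged from 1.24e-07 without the filter on low counts to 0.738 without anterior replicate 2, and it was 0.0142 in DESeq2.

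The first row after *Hoxc6* was at 4.02 and 1.92 CPM in anterior libraries and at 0.853, 1.01 and 1.54 CPM in posterior replicates 1, 2 and 3, so that the groups did not overlap but their edges were close. The second row had 215 and 53 anterior counts and 0, 24 and 0 posterior counts. The anterior replicates of that row differed by more than the members did, with 4.80 and 1.04 CPM. The third row had 20 and 41 anterior counts and 0 posterior counts, which makes it at least 36.3-fold higher in anterior cells against the floor of 3 counts over the posterior libraries. The fifth row had 28 counts, all in anterior replicate 2, and was not tested. How reads on overlapping genes, or with several alignments, were counted is not given in the sources used here, so that these rows may share reads with *Hoxc6* or with each other.

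Farther from the HoxC genes the picture was mixed. From the sixth to the thirteenth row after *Hoxc6*, 3 rows had counts, and all 3 had the higher mean in posterior cells. The sixth and the tenth row had 7 and 21 counts, all in posterior replicate 1, and the eleventh row was the one tested. That row had 33 and 18 counts in anterior libraries and 151, 44 and 141 in posterior replicates 1, 2 and 3, and its log2 fold change of 1.86 did not pass (standard error 1.12, adjusted p = 0.821 in edgeR). Before *Hoxc10*, 6 of the 11 rows had counts, all with the higher mean in anterior cells, but 4 of them held 1 to 6 counts in total and 2 passed the filter. The row 8 places before it was at 2.23 and 3.41 CPM in anterior and at 1.40, 1.14 and 1.21 CPM in posterior libraries. The row 3 places before it was at 4.58 and 3.08 CPM in anterior and at 2.58, 0.837 and 4.61 CPM in posterior libraries, and there the groups overlapped. Both rows next to *Hoxc10* on that side had no counts in any library. In the 76 rows beyond these, out to 50 identifiers on each side, 21 were tested, with 9 negative and 12 positive log2 fold changes, a median of 0.11 and 0 calls (1 at an unadjusted p under 0.05).

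**Figure D3:**
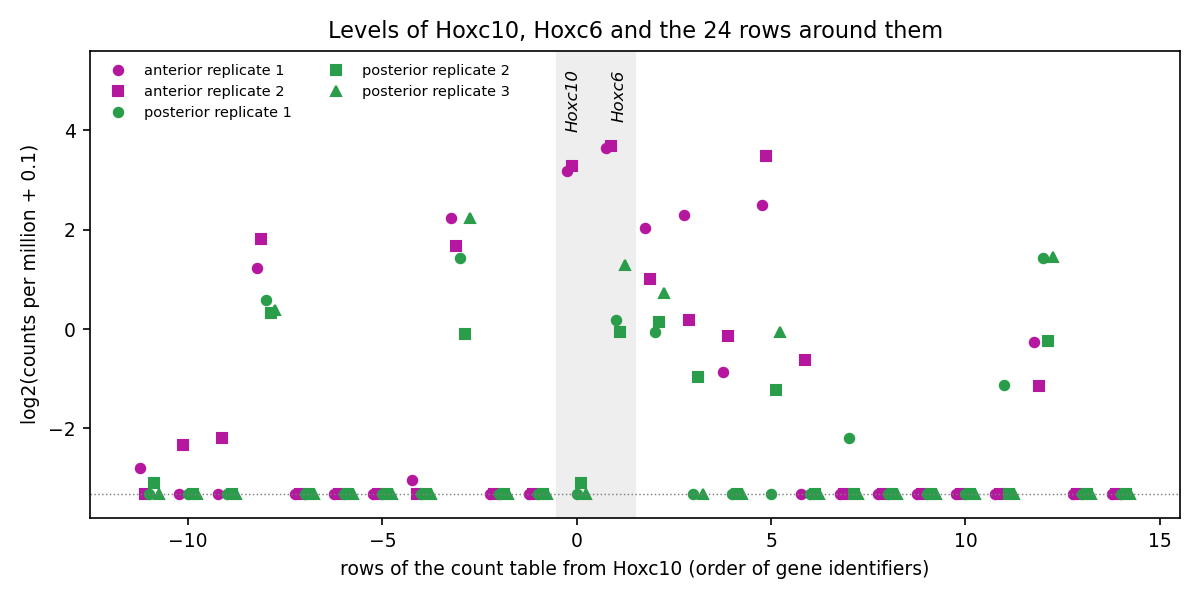
Level, as log2(CPM + 0.1), of *Hoxc10* and *Hoxc6* (grey band) and the 24 rows around them (horizontal axis, rows from *Hoxc10*) in anterior (magenta) and posterior (green) libraries; the dotted line is a count of 0. Anterior points lie above posterior ones from *Hoxc10* to the fourth row after *Hoxc6*, and the order turns at the eleventh row.

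The RefSeq annotation of another axolotl assembly (UKY_AmexF1_1) was read for gene order only, since 0 identifiers of the count table are found in it. It lists 8 HoxC genes, in the order *Hoxc4*, *Hoxc5*, *Hoxc8*, *Hoxc9*, *Hoxc10*, *Hoxc11*, *Hoxc12* and *Hoxc13*. There the protein-coding neighbours of *Hoxc10* are *Hoxc9* and *Hoxc11*. *Hoxc6* is not in that list, which therefore gives no place for it. In the count table the identifiers of *Hoxc10* and *Hoxc6* follow each other directly. The symbol of *Hoxc6* was taken from the study and could not be checked here. Its values therefore hold for the row AMEX60DD029497, whichever gene that row stands for. Which of the rows around the pair stand for other HoxC genes was not established. The symbol of each identifier is that of the human homologue or of the closest homologue found by the authors.

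Besides the HoxC pair, *Hoxa13* and *Hoxd13* are the Hox genes in the lists used for symbols, and both pointed the other way. Both are the study's own calls on these samples, so that their direction is a description only. In edgeR's quasi-likelihood test *Hoxd13* passed (log2 fold change 3.94, adjusted p = 0.0047) and *Hoxa13* did not (1.98, adjusted p = 0.14). *Hoxd13* was at 1.29 and 0.568 CPM in anterior and at 11.0, 15.1 and 16.7 CPM in posterior libraries. *Hoxa13* was at 2.05 and 1.59 CPM in anterior and at 6.16, 6.17 and 9.21 CPM in posterior libraries. These group 13 genes, which specify the most distal limb in the mouse, were thus detected at low levels in every anterior library, as *Hoxc6* was in every posterior one, and *Hoxc10* was the only gene of these 4 that fell below the floor of 3 counts in a library. In the 24 rows around *Hoxa13*, 9 were tested with a median log2 fold change of 0.04, and around *Hoxd13* 11 were tested with a median of -0.02. In edgeR's test 0 of these 20 rows were called, and DESeq2 and limma-voom also called 0, whereas 1 passed in edgeR without the filter. At an unadjusted p under 0.05, 1 row around *Hoxa13* passed, higher in anterior cells. Around *Hoxd13* 2 rows passed, both higher in posterior cells, as *Hoxd13* was. They were the row directly before *Hoxd13*, at a log2 fold change of 0.712, and the row 4 places before it. The latter had 0 anterior counts and passed the filter through the posterior libraries alone, so that this count leans towards a difference. Over all genes tested the share in either direction was 7.55%. The medians of these stretches were close to that of all genes, whereas the median around the HoxC genes was -1.39. That median includes the second and the third row after *Hoxc6*, which passed the filter through the anterior libraries alone, and so leans towards a difference. The stretches around *Hoxa13* and *Hoxd13* likewise include rows with 0 anterior counts, which passed the filter through the posterior libraries alone. No test was made between the stretches.

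**Figure D4:**
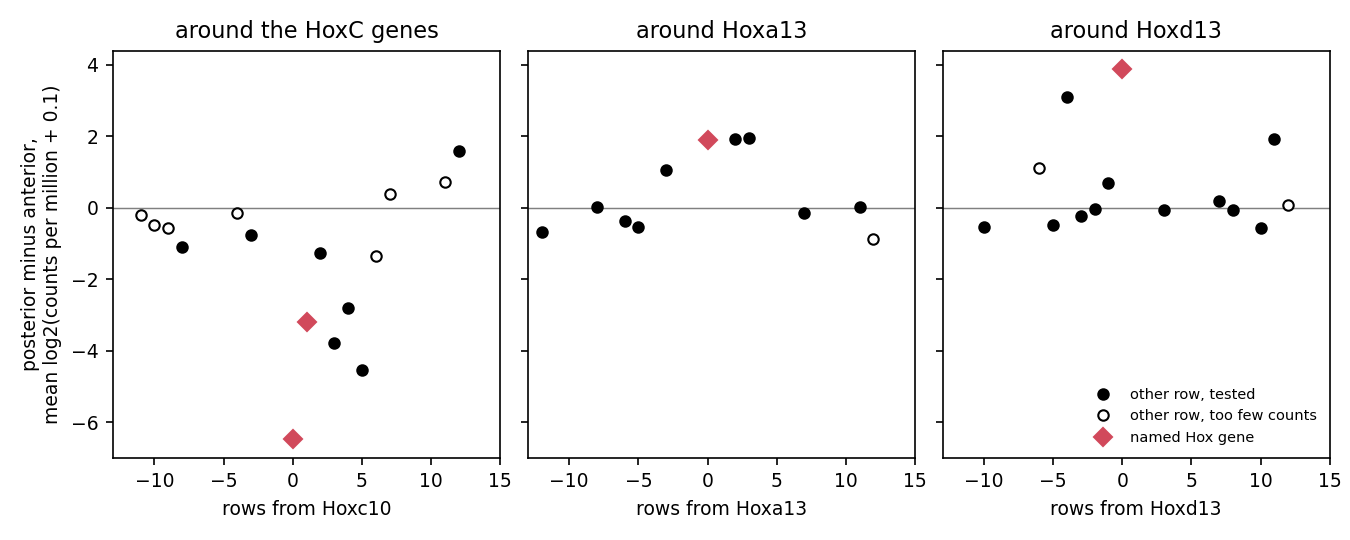
Difference between posterior and anterior cells in mean log2(CPM + 0.1) for rows with any count, by distance in rows from *Hoxc10* (left), *Hoxa13* (middle) and *Hoxd13* (right); diamonds are the named Hox genes, filled circles tested rows and open circles rows with too few counts. Values below 0 are higher in anterior cells and gather just after the HoxC genes, whereas most rows around *Hoxa13* and *Hoxd13* lie near 0.

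The genes with the pattern most like that of each member were sought among all tested genes, by the root mean square (RMS) difference between log2(CPM + 0.1) profiles over the 5 libraries, each centred on its own mean. For *Hoxc10* the nearest gene was *Lhx9* (RMS difference 0.39), which had 550 and 899 anterior and 0 posterior counts. It was followed by LOC115076842 (0.68), *Krt18* (0.92), *Lrrc71* (0.99) and *Foxd1* (1.05). All 5 had 0 counts in every posterior library and passed the filter through the anterior libraries alone. The measure uses the values by which *Hoxc10* was chosen, so that this shared lack of posterior counts follows from it and is a description only. *Krt18*, a keratin of simple epithelia, had 96 and 129 anterior counts, while the other epidermal markers were higher in posterior cells. No gene without a symbol was nearer to *Hoxc10* than these 5. With a pseudocount of 0.5 in place of 0.1 CPM, 2 of the 5 remained. *Hoxc6* itself ranked 84 among 20874 genes for likeness to *Hoxc10* (RMS difference 1.69), and the fourth row after *Hoxc6* ranked 22 (1.43). For likeness to *Hoxc6* that row ranked 749 of 20874, although its RMS difference to *Hoxc6* was smaller than that to *Hoxc10*. The ranks for *Hoxc10* and for *Hoxc6* therefore cannot be compared as distances.

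For *Hoxc6* the nearest gene with a symbol was *Nts*, which encodes the neuropeptide neurotensin (RMS difference 0.46). *Nts* had 729 and 865 anterior counts and 94, 29 and 166 counts in posterior replicates 1, 2 and 3, and was thus also highest in posterior replicate 3 among posterior libraries. *Enpp2*, which encodes the secreted enzyme autotaxin, followed with 0.52 and was likewise highest in that replicate, at 24.5, 34.2 and 36.0 CPM in posterior replicates 1, 2 and 3. Then came *C1qtnf7*, a secreted C1q-related protein, with 0.61, E1301-TTI003913 with 0.61 and *Znf420* with 0.65. *C1qtnf7* was instead lowest in posterior replicate 3, at 13.4, 8.75 and 8.17 CPM in posterior replicates 1, 2 and 3. E1301-TTI003913 was highest in posterior replicate 2, at 0.409, 0.769 and 0.484 CPM. Nearer than *Nts* were 11 genes without a symbol, and nearer than *Znf420* were 154. *Znf420* had 0 posterior counts, unlike the others. The measure uses the values by which *Hoxc6* was chosen, including those of each posterior library. A shared order of posterior libraries therefore follows in part from it and is a description only. *Hoxc10* ranked 10589 of 20874 for likeness to *Hoxc6*, and its profile spans a much wider range between positions. Symbols are known only for genes the study called between positions, which limits the names to such genes.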

How the data were processed

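RNA sequencing was performed on sorted dermal cells in 2 anterior and 3 posterior libraries. The authors trimmed QuantSeq 3′ reads with Trimmomatic 0.39, mapped them to AmexG_v6.0-DD with HISAT2 and deposited raw featureCounts counts per gene and library, without normalization. HISAT2 kept up to 5 alignments per read. How featureCounts treated strand and reads with several alignments is not given in the sources used here. Libraries were matched to samples by the column number in the labels.

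All genes were fitted together with edgeR 4.0.16 (R 4.3.3): filterByExpr, TMM scaling (factors 0.993 to 1.01), glmQLFit and glmQLFTest, and Benjamini-Hochberg adjustment over the 20875 genes tested at a false-discovery rate of 0.01, with positive log2 fold changes higher in posterior cells. Standard errors given with edgeR were calculated as the absolute log2 fold change divided by the square root of the F statistic of the test. CPM use the TMM-scaled sizes. Alternatives were DESeq2 1.42.0, limma-voom (limma 3.58.1), other scalings and filters, the replicate number as a block and each library left out. The procedure was run on simulated counts, in which genes with a low mean were not among those changed. That run therefore does not cover calls on low rows. Genes were named if they were HoxC members, Hox genes or Hox cofactors with an identifier, rows near *Hoxc10*, spatial transcription factors, or the 5 genes most alike. The members and lists were chosen with earlier results of these data known. Symbols come from the study's lists of genes called between anterior and posterior dermal cells, which name 283 of 306 identifiers. Intervals cover the counting error of reads only. No molecular identifiers are described, so that copies of a molecule cannot be told from separate molecules and the intervals may be too narrow. Whether anterior and posterior replicates came from the same axolotls is not stated.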

Additional observations from a re-analysis of the deposited data

How the results depend on the processing

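Counts of calls depended on the settings more than the HoxC values did. Over all genes, 53 passed, against 292 with DESeq2, 337 with no filter on low counts, 130 in the block fit on replicate number, 127 at a false-discovery rate of 0.05, and 2 to 62 with 1 library left out. Without a posterior library 2 to 5 passed. Of the rows around the HoxC genes, 0 passed, against 1 without the filter and 1 in the block fit, each time the fourth row after *Hoxc6* (adjusted p = 1.24e-07 and 0.00168, edgeR's quasi-likelihood test). Of the rows around *Hoxa13* and *Hoxd13*, 0 passed, against 1 without the filter. The cause of these changes was not tested. Whether same-numbered libraries came from the same animals is not stated. Across genes, the change from replicate 1 to 2 in anterior cells had an r of -0.03 with that in posterior cells. A correlation of 1 difference per position cannot decide whether the libraries are paired. Replicate 3 exists in posterior cells only, so that the block absorbs it and the position effect rests on replicates 1 and 2. With the replicate block, the log2 fold change of *Hoxc6* was -3.73. It ran from -3.71 to -2.89 with 1 library left out, and the median around the HoxC genes from -1.66 to -1.25. With an anterior library left out, the lone sample is assumed to vary like the others. The Hox fold changes, count ratios and this median kept their direction under the alternatives run. With a pseudocount of 0.5 CPM, 2 and 3 of the 5 genes most like *Hoxc10* and *Hoxc6* remained. For low rows, counting depth and the spread between the few replicates limit what can be called.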
